A study of Mus musculus with 6 samples.

Results

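The genes described here are 10 regulators of the G1 phase of the cell cycle, measured in cultured precursors from the adult mouse hippocampus. They are the cyclins Ccnd1, Ccnd2, Ccnd3, Ccne1 and Ccne2, the kinases Cdk4 and Cdk6, and the inhibitors Cdkn1b, Cdkn1c and Cdkn2c. They were taken from a fixed list of symbols, and their probes were found by matching the transcript accession of each non-control probe to a gene symbol. This gave 14 of the 55681 probes on the array, with at least 1 probe for each of the 10 genes. Of these genes 9 could be tested, among 24177 features tested in all. The probe of Cdk6 was not well above background on any of the 6 arrays.

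Precursor cells isolated from the dentate gyri of male C57BL6/JRj mice 8 weeks old were kept as an attached monolayer in medium with 20 ng/ml each of EGF and bFGF. The LDL group (3 arrays) received human low-density lipoprotein, the main cholesterol carrier of blood, for 48 h at 100 ug/ml, although the sample descriptions write this dose with another unit of volume. The saline group (3 arrays) received saline for the same time, and both groups shared strain, sex, medium and mitogens. The replicates came from different passages of cultured cells, so the p-values measure the spread between passages and not between animals. All 6 samples were hybridised to 1 slide as 1-colour Agilent arrays, whose number limits the precision.

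D-type cyclins are made in response to mitogens and bind the kinases CDK4 and CDK6, which phosphorylate the retinoblastoma protein and so release E2F transcription factors. Cyclin E with CDK2 then carries the cell into S phase. INK4 proteins such as the product of Cdkn2c bind CDK4 and CDK6, and CIP/KIP proteins such as those of Cdkn1b (Kip1) and Cdkn1c (Kip2) bind cyclin-kinase complexes. In the adult mouse hippocampus, cyclin D2 and CDK6 are known to be needed for the expansion of precursors, and Kip2 for keeping stem cells quiescent.

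None of the 9 tested genes passed an adjusted p of 0.05 in the comparison of LDL with saline (limma, moderated test, Benjamini-Hochberg over 24177 features, n = 3 each). By this rule 0.0207% of all features were called higher and 0.116% lower after LDL, which is 5 and 28 features, or 8 and 22 when each array was scaled to its median. No feature was called without LDL replicate 2, without LDL replicate 3 or without saline replicate 3, and 0 higher and 3 lower without saline replicate 2. At an unadjusted p under 0.05 there were 4 of the 9 genes, against 7.5% of all features. All 3 LDL arrays lay above all saline arrays for 1 gene, Ccnd1, and below them for 3, Cdk4, Cdkn1c and Cdkn2c. Over all features, 5.83% had groups apart with LDL higher and 8.79% with LDL lower, or 14.6% in either direction. The log2 fold change (LDL minus saline) was positive for 2 of the 9 genes and for 43.7% of all features, and negative for 7 of the 9 and for 56.3%. Its median was -0.14 over the 9 genes and -0.03 over all features. Without saline replicate 2 these medians were -0.07 and -0.06. In such bulk samples, fewer cells of a type and less RNA per cell cannot be told apart.

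**Figure D1:**
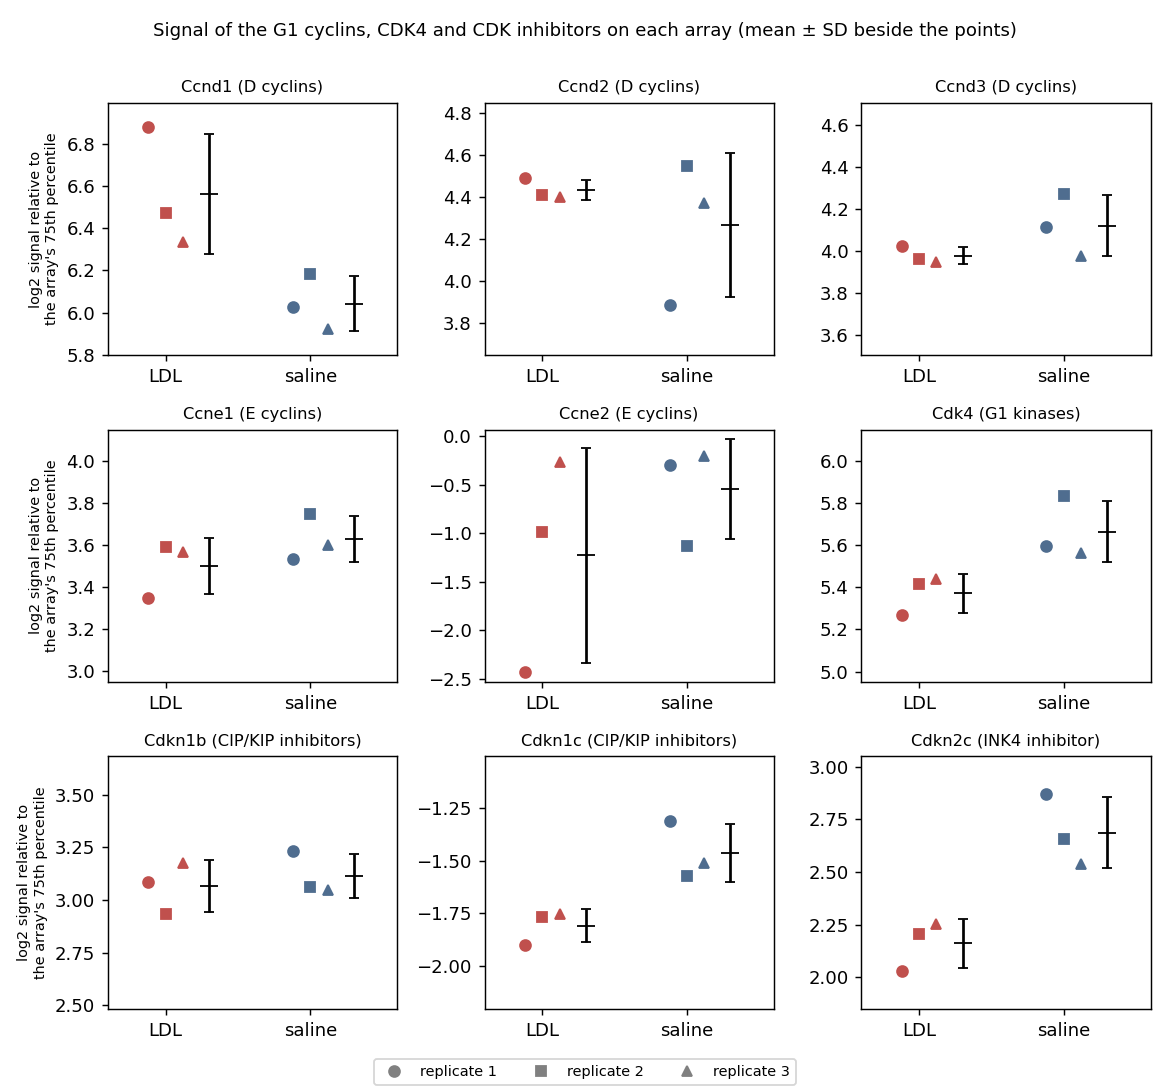
Normalised log2 signal (y axis, each gene on its own scale) of the 9 tested genes on the 3 LDL and 3 saline arrays, with the mean ± SD beside the points. All LDL points lie above all saline points for Ccnd1 and below them for Cdk4, Cdkn1c and Cdkn2c, while the groups overlap for the other 5 genes.

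The treatment itself was visible in sterol genes. Fdps and Hmgcs1, enzymes of the mevalonate pathway, fell by 1.96 and 2.15 on the log2 scale (adjusted p = 0.00453 and 0.00956 in limma, n = 3 each). Of 8 markers of neural precursors, 7 were well above background on all 6 arrays, including Nes, Sox2, Vim and Fabp7. Of 6 neuronal markers, 4 were well above background on all 6 arrays, while Dcx and Neurod1 were not on any array. Markers of oligodendrocyte lineage (6 of 6) and microglia (4 of 6) were also above background on all arrays. Of the microglial markers, P2ry12 was above background on no array and Aif1 on only 1 saline array. Over the whole array design, 22768 of 36659 features had a probe well above background on all 6 arrays. Such marker counts therefore do not show by themselves that a cell type was present. Marker signals, each divided by its array's 75th percentile, were summed for each cell type. The sums did not overlap between the groups for astrocytes, with 2.83 to 3.12 in LDL and 3.13 to 3.69 in saline arrays. Nor did they for vascular cells, with 13.3 to 14.0 in LDL and 14.1 to 14.7 in saline arrays. They overlapped for neural precursors, neurons, oligodendrocyte lineage and microglia. Among single features, 14.6% had groups apart in either direction. Of the 5 astrocyte markers all were above background on all arrays, and of the 5 vascular markers 2 were, with Cdh5 and Pdgfrb on none. Most of the vascular sum came from 1 gene, Kdr, at -0.07 (limma adjusted p = 0.906), while the groups overlapped for Pecam1, the other marker tested, so the sum describes Kdr rather than vascular cells. Gfap, an astrocyte and stem cell gene, rose by 1.35 on the log2 scale (limma adjusted p = 0.0213), while the other 4 astrocyte markers had negative values. The groups overlapped for each of those 4 markers. The astrocyte sums lay only just apart, with 3.119 in the highest LDL array and 3.126 in the lowest saline array. The part of these cell types in the results was not tested.

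Of the 3 D cyclins, Ccnd1 was the one whose LDL arrays all lay above the saline arrays. Its normalised log2 signal, which is log2 of the processed signal minus that of the array's own 75th percentile, was 6.88, 6.47 and 6.33 in LDL replicates 1 to 3, against 6.03, 6.18 and 5.92 in saline replicates 1 to 3. The groups did not overlap, and LDL replicate 1 stood highest. The mean was 6.56 ± 0.28 with LDL and 6.04 ± 0.13 with saline (SD, n = 3 each). The difference was 0.52 (SE 0.16, 95% interval 0.14 to 0.90), a 1.43-fold higher signal that did not pass over all features (limma adjusted p = 0.518). In size it exceeded the differences of 96.8% of all features. Without LDL replicate 1 the difference was 0.36. It was 0.57 among the arrays of slide row 1, with 2 of each group, and 0.41 in slide row 2, with 1 of each. With scaling to the array median the 2 groups overlapped.

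Ccnd2, the D cyclin most closely tied to adult neurogenesis, had 4.49, 4.41 and 4.40 in LDL replicates 1 to 3, against 3.88, 4.54 and 4.37 in saline replicates 1 to 3. The LDL arrays lay close together, and saline replicate 1 stood below the other 5 arrays. The difference of 0.17 (95% interval -0.25 to 0.58, limma adjusted p = 0.885) was -0.025 without saline replicate 1.

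Ccnd3 had 4.03, 3.96 and 3.95 in LDL replicates 1 to 3, against 4.11, 4.27 and 3.98 in saline replicates 1 to 3. The groups touched only at LDL replicate 1 and saline replicate 3. They came apart, with LDL lower, in the authors' deposited log2 values and after quantile normalisation. They overlapped with scaling to the array median and with the mean over the gene's probes. The difference was -0.14 (95% interval -0.40 to 0.12, limma adjusted p = 0.831), and a second, dimmer probe of the gene gave 0.01.

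Whether LDL shifted the D cyclins unequally was tested on the difference between 2 genes within each array, which a shift of a whole array leaves as it is. For Ccnd1 minus Ccnd3 the LDL and saline means differed by 0.66, with a log2 difference of 2.59 ± 0.24 with LDL and 1.92 ± 0.02 with saline (SD, n = 3 each). The exact permutation test (two-sided) gave p = 0.1, or 0.15 adjusted over the 3 pairs. With 3 against 3 arrays this test cannot give a p below 0.1, so it could not pass for any pair. For Ccnd2 minus Ccnd3 they differed by 0.31 (exact permutation p = 0.1, adjusted 0.15). The exact permutation p of this pair was 0.2 in the authors' deposited values and after normexp with quantile normalization, with differences of 0.31 and 0.30. For Ccnd1 minus Ccnd2 they differed by 0.35 (exact permutation p = 0.3, adjusted 0.3).

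The E cyclins showed no difference that could be told from the spread between arrays. Ccne1 had 3.35, 3.59 and 3.57 in LDL replicates 1 to 3, against 3.53, 3.75 and 3.60 in saline replicates 1 to 3. The groups overlapped, and the difference was -0.13 (95% interval -0.40 to 0.14, limma adjusted p = 0.857), with -0.07 on a second probe. Ccne2 had -2.44, -0.98 and -0.27 in LDL replicates 1 to 3, against -0.29, -1.14 and -0.21 in saline replicates 1 to 3. LDL replicate 1 lay far below the other arrays, and the remaining 5 were mixed. The resulting difference of -0.68 had an interval from -1.97 to 0.60 (limma adjusted p = 0.836) and was -0.08 without LDL replicate 1.

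Cdk4, the partner kinase of the D cyclins, was measured by 3 probes. The brightest had 5.27, 5.41 and 5.44 in LDL replicates 1 to 3, against 5.60, 5.83 and 5.56 in saline replicates 1 to 3. All LDL arrays were lower, with a mean of 5.37 ± 0.09 with LDL and 5.66 ± 0.15 with saline (SD, n = 3 each). The log2 fold change was -0.29 (SE 0.11, 95% interval -0.56 to -0.02), a 1.22-fold lower signal that did not pass (limma adjusted p = 0.634). The probes differed in size, with -0.20 and -0.07 on the 2 dimmer ones, and with the mean over the 3 probes the groups overlapped. On the dimmest probe saline replicate 1 was the lowest of all arrays at 2.44, and saline replicate 2 the highest at 3.43. The difference of the brightest probe was -0.37 in slide row 1 and -0.13 in slide row 2.

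**Figure D2:**
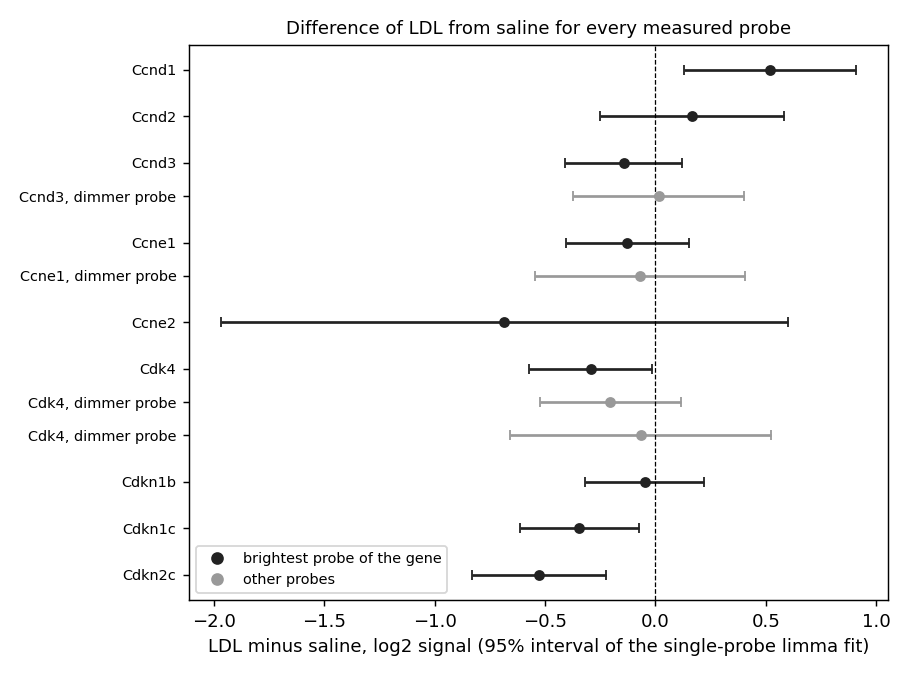
Difference between LDL and saline (x axis, log2 signal, 95% interval of a limma fit on single probes) for the 13 measured probes, with the brightest probe of each gene in black and the others in grey. The brightest probes of Cdk4, Cdkn1c and Cdkn2c have intervals below 0 and that of Ccnd1 has one above 0, before any adjustment over features, while the dimmer probes of Cdk4 and Ccnd3 lie closer to 0.

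The 250 bases upstream of the annotated start of Cdk4 are shown because they hold an unusual number of E-boxes, the sites CACGTG bound by MYC and related factors (RefSeq, GRCm38.p6, chr10:127063285-127063534, plus strand, E-boxes in capitals).
Cdk4 upstream: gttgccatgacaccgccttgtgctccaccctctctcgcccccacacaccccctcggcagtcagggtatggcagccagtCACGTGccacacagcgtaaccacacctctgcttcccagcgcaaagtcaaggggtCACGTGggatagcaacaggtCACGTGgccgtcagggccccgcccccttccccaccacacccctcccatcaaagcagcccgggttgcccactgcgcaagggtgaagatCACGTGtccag
There were 4 E-boxes in this window. At least 1 was found in 6.02% of 32851 windows of this length upstream of mouse genes, and 4 or more in 7 windows (0.0213%). Upstream sequence was found for 6 of the 10 genes, in 8 windows. The Cdk6 window held 1 E-box and the windows of Ccnd3, Ccne1, Cdkn1b and Cdkn2c none. None of the 8 windows held an E2F word (TTTCCCGC, TTTCGCGC, TTTGCCGC or TTTGGCGC, in 1.86% of windows) or the sterol regulatory word TCACNCCAC (1.05% of windows), all searched on both strands. A match or its absence describes these letters only. Myc mRNA itself differed by -0.05 in log2 signal (95% interval -0.27 to 0.17, limma adjusted p = 0.947). The related Mycn, near the detection limit, differed by -0.65 (limma adjusted p = 0.567). A link of either factor to the Cdk4 signal was not tested.

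Cdk6, the other kinase of the D cyclins, was covered by a single probe with processed signals between 4.13 and 7.43 on the 6 arrays, not well above background. No level or change can be given for it.

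Of the 3 inhibitors, Cdkn2c and Cdkn1c had groups apart, with LDL lower, and Cdkn1b had groups that overlapped, and none passed. Cdkn2c, which encodes an INK4 inhibitor of CDK4 and CDK6, had 2.03, 2.20 and 2.25 in LDL replicates 1 to 3, against 2.87, 2.66 and 2.54 in saline replicates 1 to 3. The groups were well apart, with the highest LDL array below the lowest saline array. The mean was 2.16 ± 0.12 with LDL and 2.69 ± 0.17 with saline (SD, n = 3 each). The log2 fold change was -0.53 (SE 0.12, 95% interval -0.82 to -0.23), a 1.44-fold lower signal. This was the smallest unadjusted p of the 9 genes (0.00404) and rank 250 of 24177 features, and it did not pass (limma adjusted p = 0.391). With 1 array left out the value ran from -0.60 to -0.43, and it was -0.65 in slide row 1 and -0.29 in slide row 2.

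The sequence upstream of Cdkn2c is given as that of the gene with the smallest p (RefSeq, GRCm38.p6, chr4:109666757-109667006, minus strand, written 5′ to 3′; no searched word occurs, so there are no capitals).
Cdkn2c upstream: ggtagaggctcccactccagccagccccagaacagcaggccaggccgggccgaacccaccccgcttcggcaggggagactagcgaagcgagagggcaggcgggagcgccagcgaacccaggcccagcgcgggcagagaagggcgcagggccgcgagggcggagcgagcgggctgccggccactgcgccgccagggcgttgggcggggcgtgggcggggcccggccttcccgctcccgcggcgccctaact
Its content of G and C was 77.2%. A second annotated start of Cdkn2c has another window (chr4:109665373-109665622, not printed), with 42.8%.

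Cdkn1c, the Kip2 gene, had -1.90, -1.77 and -1.76 in LDL replicates 1 to 3, against -1.31, -1.57 and -1.51 in saline replicates 1 to 3. All LDL arrays were lower, under each scaling tried. The mean was -1.81 ± 0.08 with LDL and -1.46 ± 0.14 with saline (SD, n = 3 each), and the log2 fold change was -0.34 (SE 0.11, 95% interval -0.61 to -0.08, limma adjusted p = 0.532), a 1.27-fold lower signal. Cdkn1b, the Kip1 gene, had 3.09, 2.93 and 3.18 in LDL replicates 1 to 3, against 3.23, 3.06 and 3.05 in saline replicates 1 to 3. The groups were mixed. Its log2 fold change was -0.05 (limma adjusted p = 0.955), and the 95% interval from -0.31 to 0.22 corresponds to between 0.805 and 1.16 times the saline signal.

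For all 4 genes whose groups were apart, LDL replicate 1 was the array farthest from saline. Its signals of Hmgcs1 and Fdps were the highest of the LDL arrays, and a link between these observations was not tested. Over the 9 genes LDL replicate 1 was the lowest array for 5 and the highest for 1. Over all features it was lowest for 4716 and highest for 3597 of 24177. LDL replicates 2 and 3 were lowest for 2597 and 2183 of all features, and highest for 1707 and 1759. Saline replicate 2 was the highest array for 4 of the 9 genes and the lowest for 0, against 5685 and 6108 of all features. For the 4 genes whose groups were apart, leaving out 1 array could not turn the sign of the difference, only change its size.

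**Figure D3:**
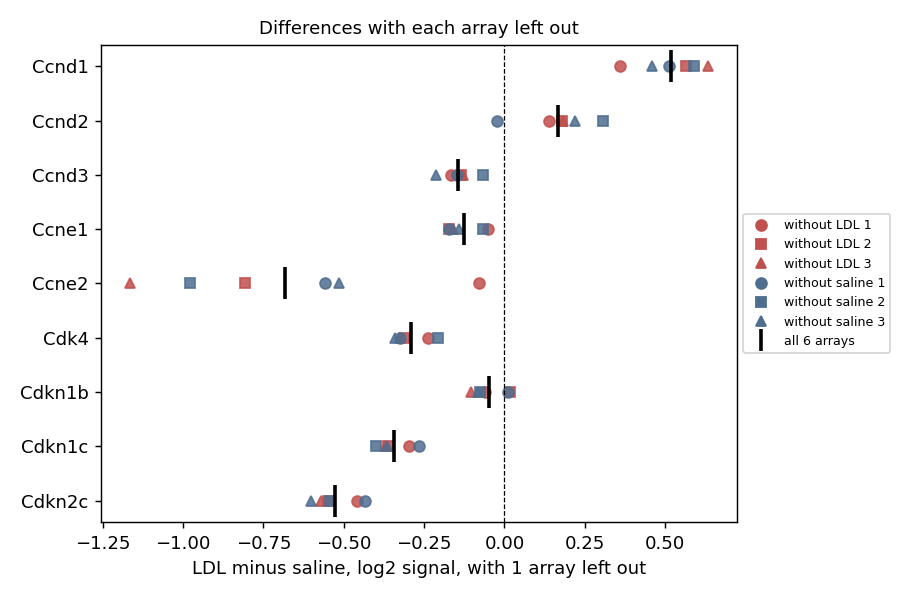
Difference between LDL and saline (x axis, log2 signal) for each of the 9 genes with 1 array left out (coloured symbols) and with all 6 arrays (black bar). Ccnd1 stays between 0.36 and 0.63, Cdkn2c between -0.60 and -0.43, Cdk4 between -0.34 and -0.21 and Cdkn1c between -0.40 and -0.27, while Ccne2 spreads from -1.16 to -0.08.

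The genes whose pattern over the 6 arrays was most like that of Cdkn2c were Nlgn3 (Pearson r = 0.998), Spin4 (0.997), Pnmal1 (0.995), Armc1 (0.993) and Atp6ap1l (0.993). This describes 6 arrays that share a group difference, and 156 of 14912 other named genes had r above 0.95. Nlgn3, which encodes a neuronal adhesion protein, had a log2 fold change of -0.71 and Atp6ap1l one of -0.92, neither passing (limma adjusted p = 0.267 and 0.147).

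The other genes of the G1 to S phase pathway were described by a list of 31, all of which were tested. None passed over all features, 8 had an unadjusted p under 0.05 (7.5% of all features), 23 had a negative and 8 a positive log2 fold change (56.3% and 43.7% of all features), and the median was -0.12. Groups were apart for 10 of them, 8 with LDL lower (8.79% of all features) and 2 with LDL higher (5.83%). Without saline replicate 2 the median of the list was -0.04, against -0.06 over all features.

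The E2F and DP factors, which drive or repress S phase genes, had 9 of 10 negative values and a median of -0.23. Over all features 56.3% were negative and the median was -0.03. The other groups of the list had medians of -0.18 (pocket proteins), -0.05 (kinases and activation) and 0.09 (other inhibitors). Turnover genes had -0.05, and the upstream factors Myc and Mycn -0.35. The smallest p belonged to E2f7, an atypical E2F that represses transcription. It had 0.99, 1.05 and 1.13 in LDL replicates 1 to 3, against 1.36, 1.52 and 1.49 in saline replicates 1 to 3. The groups were apart and the log2 fold change was -0.40 (SE 0.10, limma adjusted p = 0.428), with -0.10 on a second probe. E2f8, its close relative, had 1.38, 1.57 and 1.55 in LDL replicates 1 to 3, against 1.93, 1.96 and 1.76 in saline replicates 1 to 3. The difference was -0.38 (SE 0.11, limma adjusted p = 0.487), with groups apart. E2f2, an activator, had -0.32 (limma adjusted p = 0.51), also with groups apart, whereas E2f1, the best known activator, had -0.13 (limma adjusted p = 0.857) with groups that overlapped.

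The pocket proteins Rb1, Rbl1 and Rbl2, which hold E2F factors inactive, had 3 negative values (56.3% of all features). Rbl1 had -0.29 (limma adjusted p = 0.559) with groups apart, and -0.16 on a second probe. Skp2, the ubiquitin ligase subunit that marks Kip1 for breakdown, had 1.58, 1.57 and 1.46 in LDL replicates 1 to 3, against 1.88, 2.00 and 1.74 in saline replicates 1 to 3. All LDL arrays were lower, and the difference was -0.34 (limma adjusted p = 0.525). Mycn, a transcription factor of dividing precursors, had -0.65 (limma adjusted p = 0.567) near the detection limit, being well above background on 2 of 3 LDL and 3 of 3 saline arrays.

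Of the 4 inhibitors outside the main list, none had groups apart. Cdkn2b, another INK4 gene, had 0.44, -0.16 and -0.26 in LDL replicates 1 to 3, against -0.20, -0.45 and -0.64 in saline replicates 1 to 3. The groups overlapped, and the difference was 0.44 (95% interval -0.06 to 0.94, limma adjusted p = 0.714), with 0.53 on a second probe. Cdkn1a, the CIP/KIP gene induced by p53, had 0.28 (95% interval -0.10 to 0.66, limma adjusted p = 0.772), with 0.17 on a second probe. Cdkn2a had -0.11, but 0.17 on a second probe, and Cdkn2d had -0.23. The 2 genes with all LDL arrays higher were E2f6, by 0.05, and Mnat1, a subunit of the CDK-activating kinase, by 0.23 (limma adjusted p = 0.935 and 0.714). Cdkn2b, Cdkn1a, Cdkn2a, Cdkn2d, Myc, E2f1, E2f6 and Mnat1 were singled out after their values were seen.

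**Figure D4:**
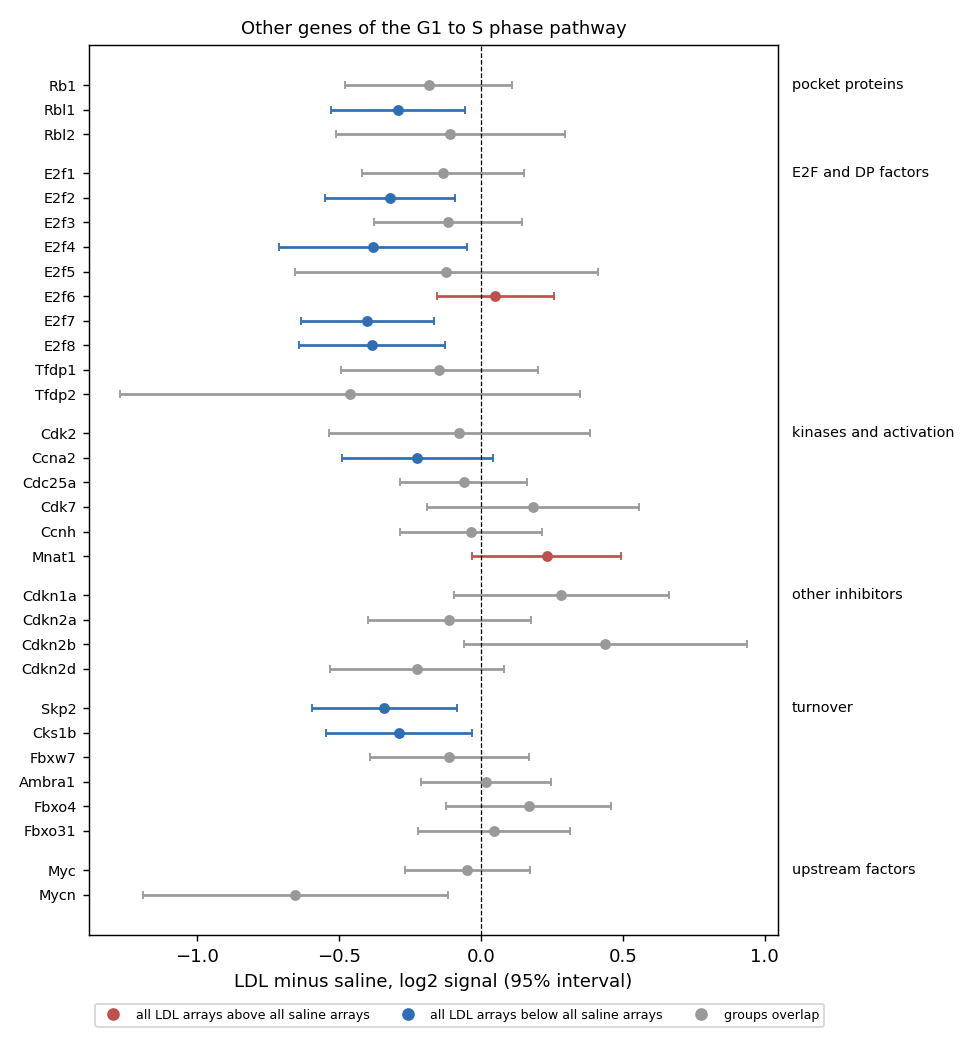
Difference between LDL and saline (x axis, log2 signal, 95% interval of the limma fit) for 31 other genes of the pathway, grouped by role. Of these, 8 have all LDL arrays below all saline arrays and 2 have them above, against 8.79% and 5.83% of all features, and none passed over all features.

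Later steps of the cycle had values of similar size. On a list of 12 S phase genes the median was -0.22, with 10 negative values and 6 genes whose LDL arrays were all lower (56.3% and 8.79% of all features). On a list of 10 mitosis genes it was -0.17, with 10 negative values and 5 such genes, against the same shares. None of the 22 passed over all features in limma, and 5 had an unadjusted p under 0.05, against 7.5% of all features. The smallest p values were those of Rrm2 and Rrm1, subunits of ribonucleotide reductase, at -0.35 and -0.25 (limma adjusted p = 0.561 and 0.606), and of Cdc20 and Ccnb1, regulators of mitosis, at -0.33 and -0.37 (limma adjusted p = 0.518 and 0.586). The other probes of Ccnb1 gave -0.07 and -0.04. Mki67, the usual marker of dividing cells, had 4.90, 4.99 and 4.91 in LDL replicates 1 to 3, against 5.04, 4.92 and 5.14 in saline replicates 1 to 3, and the groups overlapped.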

How the data were processed

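The authors deposited 6 Agilent Feature Extraction outputs with intensity values on a linear scale, background-subtracted and detrended within each array but not normalized between arrays, per the file headers. They also deposited a table of log2 values of the same arrays, aligned between arrays by a method not given in the sources used here. The tools named are Feature Extraction 10.7.3.1 by Agilent, then limma 3.34.9 and R 3.4.4, per the submitters' processing notes.

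Here each array's 75th percentile was subtracted from log2 of the processed signal. Spots flagged as outliers by the scanner software were dropped. Probes well above background on all 3 arrays of at least 1 group were tested (32920 of 55681), except 73 with a flagged value. A probe counted as above background where at least 50% of its spots were. Transcript accessions were matched to RefSeq symbols of GRCm38.p6, used for names only, since the array design names another build. The files hold no column of gene symbols, so members were found through these accessions. Each gene was represented by its brightest probe. The fit of LDL against saline used limma 3.58.1 (R 4.3.3) without covariates. Benjamini-Hochberg adjustment covered 24177 features, and 95% intervals came from the moderated test. The fit was run on simulated data with changes larger than those of any tested member. That run does not show how often changes of the members' size would pass. Named genes were all 10 members, the 6 pathway genes with the smallest p, the 2 of each later list, the 5 patterns most like the member with the smallest p, and the check genes, of which 1 is not reported here. Others were named after their values were seen. The members and lists were chosen with earlier results of these data known, and the motifs after the values were seen. Figures were drawn with matplotlib 3.10.9.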

Additional observations from a re-analysis of the deposited data

How the results depend on the processing

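None of the 9 tested genes, the 31 pathway genes or the 22 genes of S phase and mitosis passed over all features in any of 18 alternatives. Of the 9 genes, 7 kept their direction in all 18. The settings of filter, block, variance model and single probes left the fold changes of the 9 genes as they were. Those settings could therefore show no change of direction. With 1 array left out Ccnd2 ran from -0.025 (without saline replicate 1) to 0.31, and Cdkn1b from -0.10 to 0.018, turning positive without LDL replicate 2 (0.018) and without saline replicate 1 (0.011). The lowest adjusted p of any of the 9 genes was 0.197, for Cdkn2c. The counts of all features called moved more. In place of 5 higher, there were 9 after normexp with quantile normalization, 8 after scaling to the array median, 9 with the authors' values, 16 with trended robust variances, and 0 without the background filter or with slide row as a block. The 28 lower became 0 without the filter and 15 with slide row as a block. With 1 array left out there were 0 to 7 higher and 0 to 25 lower, with 0 in both directions without LDL replicate 2, LDL replicate 3 or saline replicate 3, 0 and 18 without LDL replicate 1, and 0 and 3 without saline replicate 2. In slide row 1 alone, added after seeing the data, 0 were higher and 0 lower. The 3 counts of 0 in both directions with 1 array left out had between 995 and 1556 features at an unadjusted p under 0.05, slide row 1 had 860, and the fit without the filter 1775. Fits with fewer arrays have fewer degrees of freedom. Why the remaining settings moved the counts was not tested. Under the replicate block 3 features were higher and 11 lower, and the block leaves every fold change as it is: Cdkn2c had an adjusted p of 0.479 and Ccnd1 of 0.496. Deviations of same-numbered arrays correlated at 0.24, -0.08 and 0.21 across features, against -0.27 to 0.08 for arrays of different numbers. The values of the arrays numbered 1 and 3 were thus the highest, while the arrays numbered 2 did not correlate best with each other. Pairing was not assumed in the main fit, and whether same-numbered arrays shared a passage was not tested. The number of arrays limits the precision, and Cdk6 could not be measured because its signal was not well above background.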
